A study of Mus musculus with 10 samples.

Results

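The 10 genes described here encode enzymes that make serine and pass its carbon to folate in mitochondria and cytosol. They are Phgdh, Psat1, Psph, Shmt1, Shmt2, Mthfd1, Mthfd2, Mthfd1l, Aldh1l2 and Gcsh. Each was taken from the array row whose annotation names that gene alone, or from the brightest such row had there been several. All 10 had exactly 1 such row, and all 10 lay above the signal floor (log2 5.16, the median of the transcript rows' means), among 30142 genes with a row of their own and 18119 above the floor. The study used 4T1, an established mouse mammary carcinoma line that forms metastatic tumours in mice. For every sample, gels were seeded with 50000 cells and kept for 5 days in RPMI 1640 medium with 10% fetal bovine serum. The groups differed, as far as the labels say, by the collagen in the gel: 2 mg/mL in the low-density group (LD) and 3.5 mg/mL in the high-density group (HD). Total RNA of each group was measured on 5 Affymetrix MTA 1.0 arrays, 1 per sample. The comparison asks how collagen density changes expression in these cells.

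Serine is built from 3-phosphoglycerate, an intermediate of glycolysis, by the consecutive action of Phgdh, Psat1 and Psph. Serine hydroxymethyltransferases then split serine into glycine and a carbon unit carried by tetrahydrofolate, with Shmt2 acting in mitochondria and Shmt1 in the cytosol. In mitochondria Mthfd2 oxidises the carried unit and Mthfd1l releases it as formate, which Mthfd1 reloads onto folate in the cytosol for purine and thymidylate synthesis. Aldh1l2 instead burns the mitochondrial unit to CO2, and Gcsh is the carrier protein of the glycine cleavage system. Proliferating tumour cells are known to draw on this pathway.

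All values are log2 signals as deposited, so a difference of 1 is a doubling, and folds are ratios of RMA signals. Precision is limited by the number of arrays. No label tells whether replicates were separate cultures, and each p-value reflects only how far these arrays scatter, possibly for technical reasons. RNA came from whole gels, so that a change in RNA per cell and a change in the share of cells expressing a gene cannot be told apart. Epithelial markers were high, with Krt8 at 12.01 and Krt18 at 12.28 in LD. All 4 endothelial markers listed, the fibroblast markers Dcn and Lum, and the leukocyte marker Ptprc lay below the floor. The other fibroblast markers with a row (5 of them) averaged 5.77 to 5.95 on the LD arrays and 5.90 to 6.12 on the HD arrays. By the test described below, 2 of these 5 (Col3a1 and Thy1) were higher in HD, where 31.1% of all genes tested were. In LD these 2 averaged 5.65 and 5.54, below the 5.67 that the medians of the arrays' negative control rows averaged there. Of 10 epithelial markers, 6 fell in HD and 4 did not pass the test, where 19.2% of all genes tested fell. The 6 log2 differences ran from -1.09 (Cldn4) to -0.10 (Cdh1). The mean signal of the 10 epithelial markers was 10.06 to 10.09 on the LD arrays and 9.74 to 9.86 on the HD arrays. Of the leukocyte markers 2 were above the floor, namely Cd68, a macrophage marker that cancer cells can also express (8.57 in LD, 7.83 in HD), and Cd3e (5.29 and 5.45). Cd3e in LD was likewise below the negative control rows. The part of these markers in the results below was not tested.

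Of the 10 enzymes, 9 were higher in HD, none was lower, and Mthfd1l did not pass the test (limma with Benjamini-Hochberg adjustment over all 18119 genes, adjusted p under 0.05). The 9 include Aldh1l2, whose signal in LD did not exceed the median of the arrays' negative control rows, so that 8 calls rest on rows above that median. The same rule called 31.1% of all genes tested higher and 19.2% lower, or 50.2% in either direction, so calls were common. The share called higher was 42.7% after quantile normalization and 50.1% with control-row scaling, and the same number of enzymes (9) was called under both. Control-row scaling shifts and stretches each array until the medians of its negative and positive control rows match those of the others. Negative rows averaged 5.67 in LD and 5.42 in HD, both above the floor of 5.16, and positive rows 9.21 and 9.28. The scaling therefore raises dim rows and lowers bright rows in HD relative to LD, whatever the gene. For 8 of the 10 enzymes every HD array lay above every LD array, which held for 21.3% of all genes, while for none was every HD array lower, which held for 14.9%. Phgdh and Mthfd2 were also at least 1.5-fold higher, which only 0.762% of all genes were. Gcsh fell just short of that cutoff (log2 difference 0.58), and so did Phgdh with control-row scaling (0.48). The median log2 difference of the 10 was 0.48, against 0.06 over all genes tested.

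**Figure D1:**
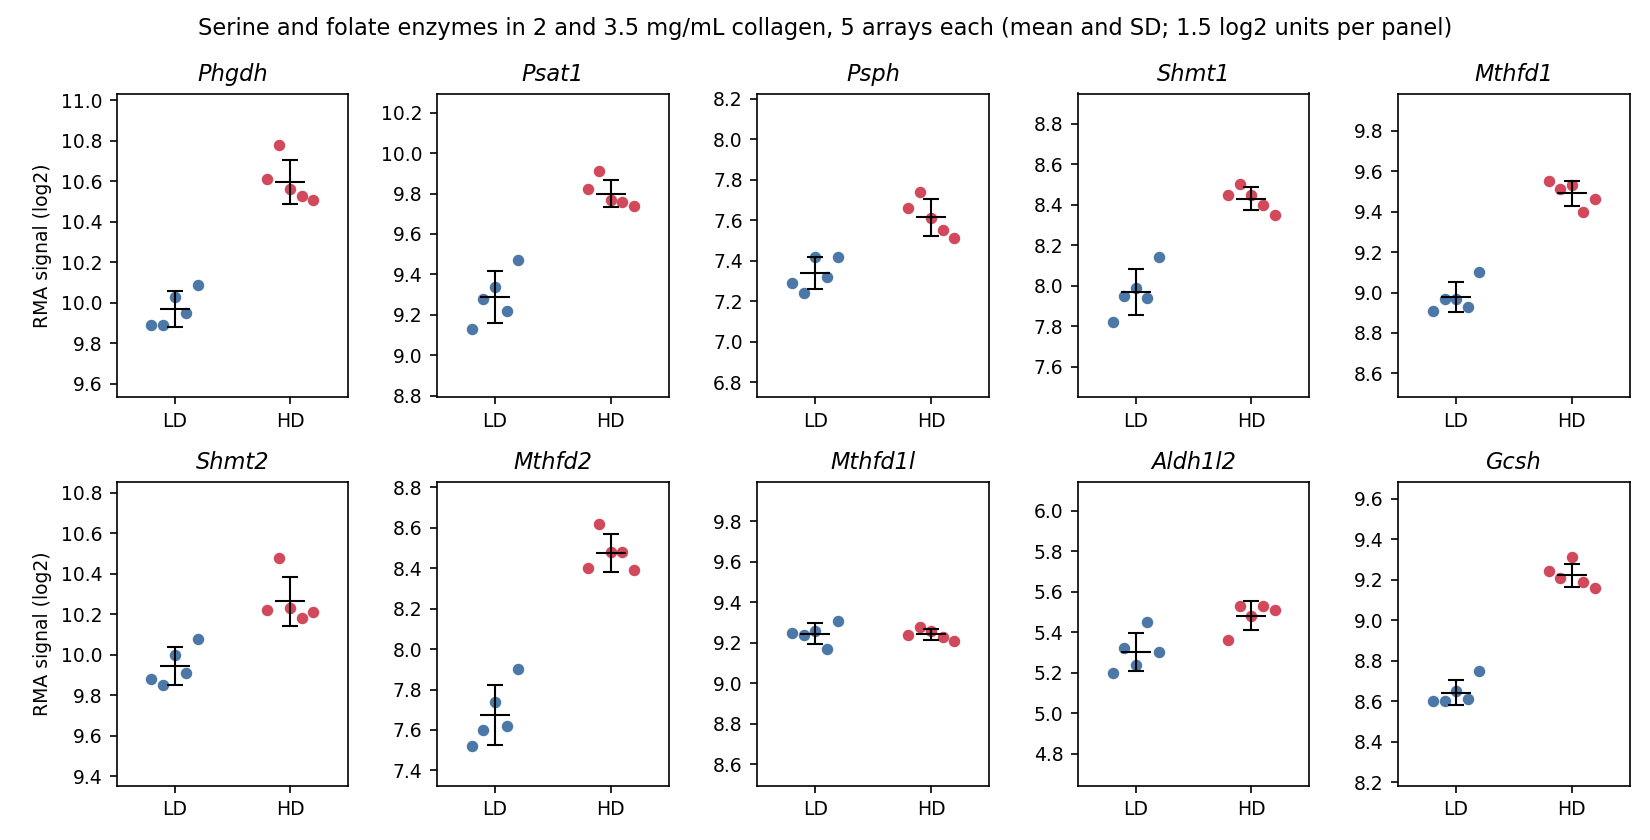
Signal (log2) of each enzyme on the 5 LD (blue) and 5 HD (red) arrays; bars are the mean and SD, and every panel spans the same log2 range. The groups are apart for 8 enzymes and overlap for Mthfd1l and Aldh1l2.

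The promoter windows of 6 enzymes are printed here, chosen with the matches known: 4 of enzymes that rose and hold at least 2 matches to the motif marked, and 2 that hold none, of Shmt2, which rose as well, and of Mthfd1l, which did not pass the test. Each is the 250 bases before the gene's start in RefSeq (build GRCm38.p6), read 5′ to 3′ on the gene's strand. Capitals mark CCAAT, the box bound by the factor NF-Y, or its reverse complement.
Phgdh (chr3:98339970-98340219, minus strand): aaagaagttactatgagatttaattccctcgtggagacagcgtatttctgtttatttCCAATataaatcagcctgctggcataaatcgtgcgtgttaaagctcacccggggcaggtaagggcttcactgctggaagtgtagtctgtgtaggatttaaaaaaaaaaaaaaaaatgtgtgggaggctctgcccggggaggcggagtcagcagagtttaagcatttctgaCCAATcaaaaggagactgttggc
Psat1 (chr19:15925060-15925309, minus strand): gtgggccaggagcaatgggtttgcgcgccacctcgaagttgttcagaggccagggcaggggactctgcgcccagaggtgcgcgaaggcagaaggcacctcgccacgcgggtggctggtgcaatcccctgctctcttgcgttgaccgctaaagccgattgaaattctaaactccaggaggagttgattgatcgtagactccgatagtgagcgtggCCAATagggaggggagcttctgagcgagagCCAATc
Mthfd2 (chr6:83317605-83317854, minus strand): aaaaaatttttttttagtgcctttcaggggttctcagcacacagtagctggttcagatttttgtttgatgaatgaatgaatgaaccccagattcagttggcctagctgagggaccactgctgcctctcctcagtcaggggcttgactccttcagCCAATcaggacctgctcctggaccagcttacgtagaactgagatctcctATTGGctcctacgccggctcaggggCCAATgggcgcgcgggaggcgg
Gcsh (chr8:116993499-116993748, minus strand): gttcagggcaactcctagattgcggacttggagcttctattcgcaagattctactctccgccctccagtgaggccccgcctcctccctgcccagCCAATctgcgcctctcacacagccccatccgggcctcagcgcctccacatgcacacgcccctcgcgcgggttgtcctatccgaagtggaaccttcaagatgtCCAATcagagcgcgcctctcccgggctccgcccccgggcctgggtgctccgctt
Shmt2 (chr10:127522445-127522694, minus strand): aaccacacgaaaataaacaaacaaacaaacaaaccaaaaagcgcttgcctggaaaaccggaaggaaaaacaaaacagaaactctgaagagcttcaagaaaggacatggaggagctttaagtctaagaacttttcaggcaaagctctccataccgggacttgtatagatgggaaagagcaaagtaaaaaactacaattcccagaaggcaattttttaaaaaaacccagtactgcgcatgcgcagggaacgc
Mthfd1l (chr10:3972825-3973074, plus strand): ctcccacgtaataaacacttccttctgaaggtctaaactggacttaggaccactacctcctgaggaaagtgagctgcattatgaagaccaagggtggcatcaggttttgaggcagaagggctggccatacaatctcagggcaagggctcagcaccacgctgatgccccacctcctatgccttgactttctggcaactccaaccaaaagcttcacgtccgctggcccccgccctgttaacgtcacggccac

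RefSeq's table held such windows for 9 of the 10 enzymes, with a further window for Psat1. CCAAT, searched on both strands, was found in 7 of these 10 windows and in 33.8% of all 32851 windows in the table. It occurred at least 2 times in 5 of the 10 windows (Phgdh, Psat1, Psph, Mthfd2 and Gcsh) and in 10.1% of all windows. Mthfd2 had 3 matches, whose first bases lay 96, 47 and 22 bases before the start. The windows of Mthfd1 and Shmt1 had a single match each, those of Mthfd1l, Shmt2 and the second one of Psat1 had none. The core of the composite element bound by ATF4 with C/EBP factors (TGATGNAA, both strands) was in none of the 10 windows and in 3.45% of all windows. The E-box CACGTG, which reads the same on both strands, was in none of the 10 and in 6.02% of all. No searched motif overlapped another. A match or its absence describes these letters in these windows and says nothing of binding.

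The 3 enzymes of serine synthesis all rose in HD. Phgdh, which catalyses the committed first step, had signals of 9.89, 9.89, 10.03, 9.95 and 10.09 on the LD arrays and 10.61, 10.78, 10.56, 10.53 and 10.51 on the HD arrays. The lowest HD array lay 0.42 above the highest LD array. The rise was 1.55-fold (log2 difference 0.63 ± 0.055 SE, limma adjusted p = 1.0e-06), the 100th largest of all genes tested. Psat1, the transaminase of the middle step, read 9.13, 9.28, 9.34, 9.22 and 9.47 in LD against 9.82, 9.91, 9.77, 9.76 and 9.74 in HD. It rose 1.42-fold (0.51 ± 0.057 SE, limma adjusted p = 7.2e-06), with no overlap between groups. Psph, the phosphatase that releases serine, rose least of the 3. Its LD signals ran from 7.24 to 7.42 and its HD signals from 7.51 to 7.74, a 1.21-fold difference (0.28 ± 0.051 SE, limma adjusted p = 4.9e-04) with only 0.09 between the groups. The 95% confidence intervals of the log2 difference were 0.51 to 0.75 for Phgdh and 0.17 to 0.38 for Psph, but with control-row scaling the differences were 0.48 and 0.36. That the 2 changes differ was not tested.

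Both serine hydroxymethyltransferases rose. Shmt2, the mitochondrial enzyme, read 9.88, 9.85, 10.00, 9.91 and 10.08 in LD and 10.22, 10.48, 10.23, 10.18 and 10.21 in HD. HD replicate 2 stood above the other 4 HD arrays, which lay close together, and no LD array reached any of them. The rise was 1.25-fold (0.32 ± 0.060 SE, limma adjusted p = 5.8e-04), and 0.27 without HD replicate 2. With control-row scaling it was 0.18. Shmt1, the cytosolic enzyme, read 7.82, 7.95, 7.99, 7.94 and 8.14 in LD and 8.45, 8.50, 8.45, 8.40 and 8.35 in HD. No LD array reached the HD range, and the rise was 1.38-fold (0.46 ± 0.053 SE, limma adjusted p = 8.7e-06).

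Mthfd2, the mitochondrial dehydrogenase and cyclohydrolase that is low in most adult tissues and high in many tumours, had the largest log2 difference of the 10. It read 7.52, 7.60, 7.74, 7.62 and 7.90 in LD and 8.40, 8.62, 8.48, 8.48 and 8.39 in HD. The gap between the groups was 0.49, the widest among the 10 enzymes. The rise was 1.74-fold (0.80 ± 0.066 SE, limma adjusted p = 5.7e-07), the 33rd largest of all genes tested. Mthfd1, the trifunctional cytosolic enzyme that handles the same folate intermediates, read 8.91, 8.97, 8.97, 8.93 and 9.10 in LD and 9.55, 9.51, 9.53, 9.40 and 9.46 in HD, 1.43-fold higher (0.51 ± 0.044 SE, limma adjusted p = 8.0e-07). Its groups were 0.30 apart.

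Mthfd1l, the mitochondrial synthetase that releases formate, was the exception. It read 9.25, 9.24, 9.26, 9.17 and 9.31 in LD and 9.24, 9.28, 9.26, 9.23 and 9.21 in HD, so the HD arrays lay wholly within the LD range. The means were 9.24 ± 0.048 (SD, n = 5) and 9.24 ± 0.027, and the 95% confidence interval of the log2 difference ran from -0.07 to 0.08 (limma adjusted p = 1.0). Its signal was well above the floor in both groups, and its spread between replicates was the smallest of the 10 enzymes in each group. Aldh1l2 was the dimmest of the 10 rows, at 5.2, 5.32, 5.24, 5.45 and 5.30 in LD and 5.36, 5.53, 5.48, 5.53 and 5.51 in HD. The groups overlapped, with HD replicate 1 below LD replicate 4. The difference was 0.18 ± 0.051 SE (limma adjusted p = 0.010), and 0.44 with control-row scaling. The median of the negative control rows was 5.61 to 5.75 on the LD arrays, above every LD value of Aldh1l2, and 5.26 to 5.58 on the HD arrays, below its value on 4 of 5. The arrays' separate background rows were lower, with medians averaging 3.47 in LD and 3.63 in HD, below every value of Aldh1l2. The call therefore concerns a row not above the median of the negative control rows in LD, and no fold is given.

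Gcsh, which carries the aminomethyl group between the other glycine cleavage proteins, read 8.60, 8.60, 8.65, 8.61 and 8.75 in LD and 9.24, 9.21, 9.31, 9.19 and 9.16 in HD. The groups were 0.42 apart, and the rise was 0.58 ± 0.041 SE on the log2 scale (limma adjusted p = 1.6e-07). The other proteins of that system, Gldc and Dld being named after their values were seen, did not share one pattern. Gldc, the decarboxylase that starts the reaction, was below the floor at 4.92 to 5.09 in LD and 4.98 to 5.09 in HD. Without a filter on dim rows its difference was 0.04 (limma adjusted p = 0.55). Amt, the aminomethyltransferase, averaged 6.18 ± 0.096 (SD, n = 5) on the LD arrays and 6.0 ± 0.11 on the HD arrays, a call of -0.18 (limma adjusted p = 0.020) that was lost without HD replicate 2 (-0.15, adjusted p = 0.0504) and after quantile normalization (-0.11), and became 0.02 with control-row scaling. Dld, the lipoamide dehydrogenase that is shared with pyruvate dehydrogenase, rose from 9.99 ± 0.083 to 10.29 ± 0.12 (limma adjusted p = 6.5e-04), and by 0.16 with control-row scaling.

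**Figure D2:**
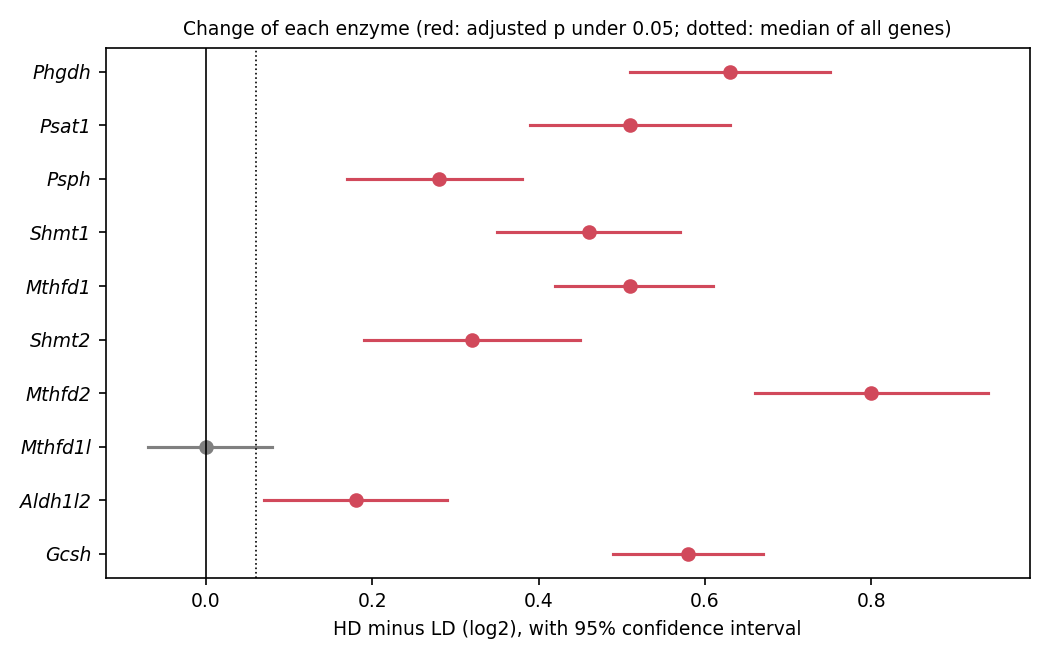
Log2 difference HD minus LD of each enzyme with its 95% confidence interval from limma; red marks adjusted p under 0.05 and the dotted line the median of all genes (0.06). The interval of Mthfd1l is the single one that includes 0, and Mthfd2 lies farthest right at 0.80.

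Since each array measured all enzymes together, related enzymes were compared by the difference of their changes. For 5 pairs the within-array difference between 2 enzymes was tested between HD and LD (two-sided exact permutation test, adjusted over the 5 pairs). Each gene was read from 1 row, and whether 2 rows register a change in RNA equally was not tested. Mthfd1l minus Mthfd1 was 0.20 to 0.34 on the LD arrays and -0.32 to -0.18 on the HD arrays, a difference of -0.51 ± 0.032 SE (exact permutation p = 0.0079, the smallest that 5 against 5 arrays can give, adjusted p = 0.0132). The ranges did not overlap, and Mthfd1 rose more than its mitochondrial relative. Mthfd2 minus Mthfd1 was -1.39 to -1.21 in LD and -1.15 to -0.89 in HD, so Mthfd2 rose by 0.29 ± 0.060 SE more than Mthfd1 (exact permutation p = 0.0079, adjusted p = 0.0132). Mthfd2l is a mitochondrial isozyme of Mthfd2, and Mthfd2 minus Mthfd2l was -1.6 to -1.21 in LD and -0.87 to -0.54 in HD. Mthfd2 thus rose by 0.69 ± 0.099 SE more than Mthfd2l (exact permutation p = 0.0079, adjusted p = 0.0132). Mthfd2l itself averaged 9.12 ± 0.046 (SD, n = 5) on the LD arrays and 9.22 ± 0.048 on the HD arrays, a difference of 0.11 (limma adjusted p = 0.031), which was lost under 9 of 19 alternative settings.

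Shmt2 rose by 0.14 less than Shmt1 (SE 0.049, exact permutation p = 0.040, adjusted p = 0.0496). The groups overlapped, with Shmt2 minus Shmt1 at 1.90 to 2.06 in LD and 1.77 to 1.99 in HD. The adjusted p was 0.0595 to 0.0992 when any 1 array other than HD replicate 2 was left out, and the difference was -0.18 without HD replicate 2, -0.22 after quantile normalization and -0.30 with control-row scaling. Aldh1l2 and its cytosolic relative Aldh1l1 could not be told apart in their change, the difference of changes being 0.02 ± 0.051 SE (exact permutation p = 0.66). Aldh1l1 was dim as well, averaging 5.44 ± 0.052 (SD, n = 5) on the LD arrays and 5.6 ± 0.098 on the HD arrays. Its LD mean was below the 5.67 that the medians of the negative control rows averaged in LD.

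**Figure D3:**
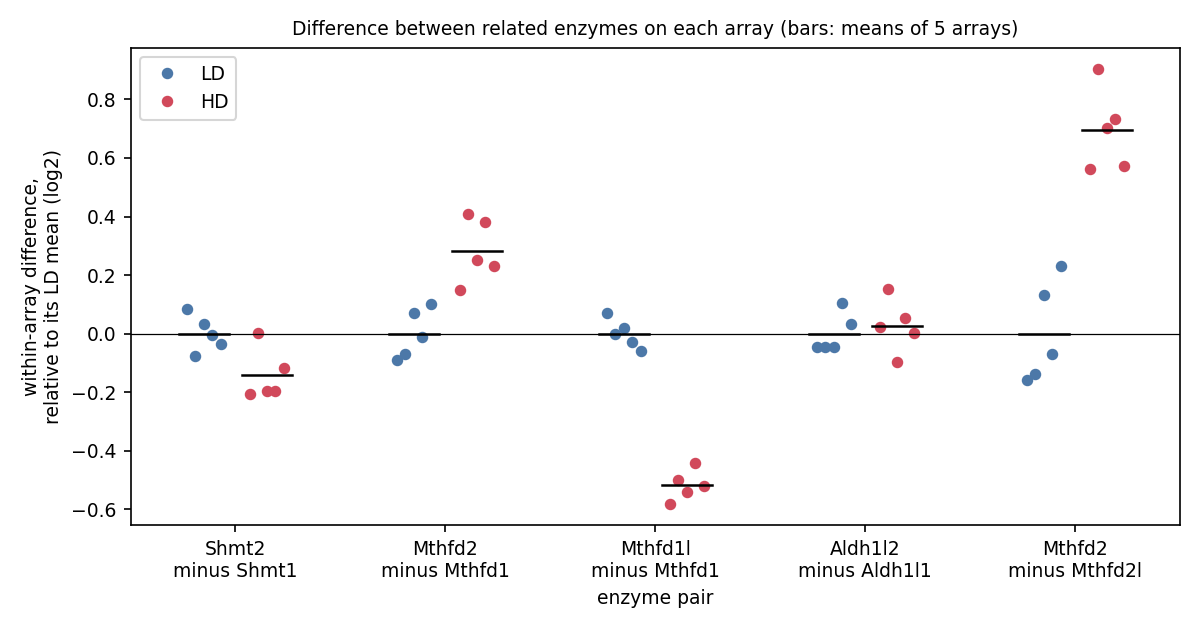
Difference between the log2 signals of 2 related enzymes on each array, set to 0 at the LD mean of each pair; points are arrays (LD blue, HD red) and bars are group means. HD lies below LD for Mthfd1l minus Mthfd1 (-0.51), above it for both pairs with Mthfd2 (0.29 and 0.69), and overlaps it for the Shmt and Aldh1l pairs.

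Within each group the enzymes moved together between arrays. LD replicate 5 had the highest signal of its group for 9 of the 10 enzymes, with a median deviation from the group mean of 0.12, and HD replicate 2 had the highest for 7 of 10 (median 0.09). HD replicate 5 was lowest for 7 of 10. Over all genes tested, the median deviation was 0.0 for LD replicate 5 and 0.01 for HD replicate 2. The quantile normalization in RMA holds that median near 0 on every array, so it cannot show how other sets of genes moved. Whether these enzymes moved together more than other genes was not tested. All 9 calls among the enzymes held without LD replicate 5 and without HD replicate 2. The deviations from the group means were correlated over the 10 arrays with r from 0.40 to 0.97 (median 0.78) for the 28 pairs that leave out Mthfd1l and Aldh1l2. Phgdh and Shmt2 had the highest (0.97), and Shmt2 and Gcsh the lowest (0.40). Mthfd1l, although it did not pass the test between the groups, moved with those 8 between arrays (r from 0.59 to 0.70), while Aldh1l2 had r from -0.27 to 0.18 with them. These are descriptions, since the points share arrays and normalization.

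**Figure D4:**
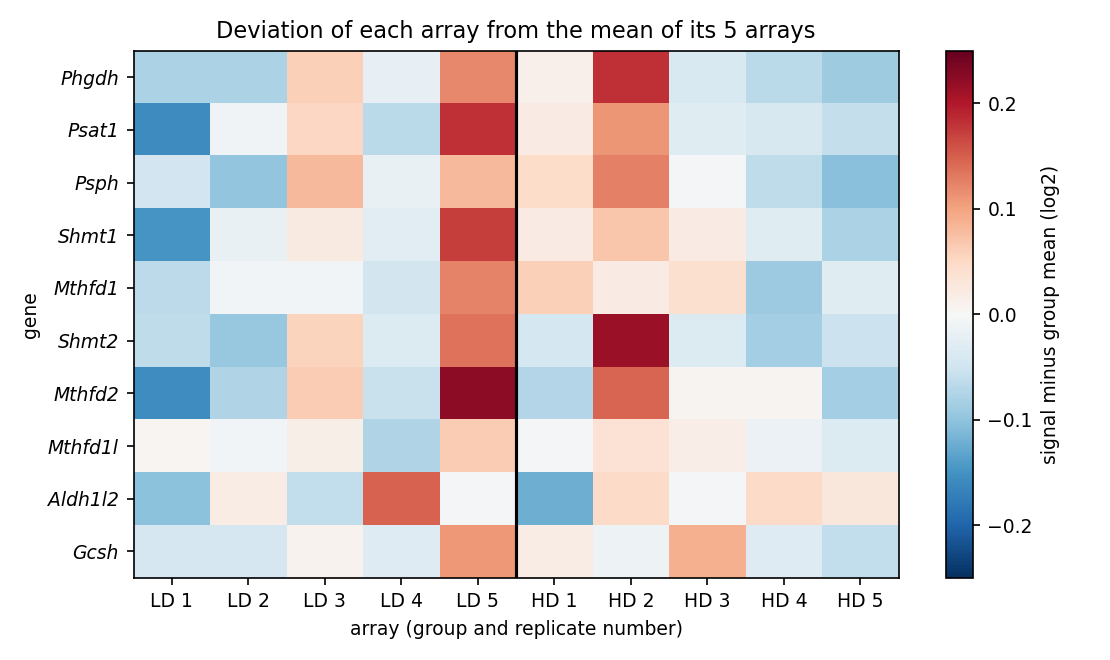
Signal of each enzyme on each array minus the mean of its group (log2 colour scale; the black line divides LD from HD). LD 5 is red for 9 enzymes and near 0 for Aldh1l2, and HD 2 is highest for Phgdh, Psat1, Psph, Shmt1, Shmt2, Mthfd2 and Mthfd1l.

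The genes whose signals followed these enzymes most closely over the 10 arrays were named for Phgdh, Shmt2 and Mthfd2 by Pearson correlation. For Phgdh they were Mrps25, a mitochondrial ribosomal protein (r = 0.9969), Ndufs6, a complex I subunit (0.9956), and Ppp1ca, a phosphatase catalytic subunit (0.9954). Mthfd2 was followed by Prep, a prolyl endopeptidase (0.9974), Ubqln1 (0.9953) and Jagn1 (0.9948). Shmt2 was followed by the transcription factor E2f4 (0.9937), the splicing factor Sf3a2 (0.9904) and the mitotic kinase Plk1 (0.9872). The correlations of the deviations from the group means were 0.92 to 0.98 for these 9 genes. Since the 9 were picked as the highest among all genes tested on these same arrays, these values are no separate support. With control-row scaling the differences of Ppp1ca, Ubqln1, Sf3a2 and Plk1 between the groups fell to 0.05, 0.05, 0.10 and 0.02 and were no longer called, and those of Prep and E2f4 became 0.16 each.

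Among 20 further genes of folate metabolism and glycine cleavage, 14 were tested, of which 8 rose, 1 fell and 5 did not pass, with a median log2 difference of 0.13. Over all genes tested 31.1% rose and 19.2% fell, with a median of 0.06. Slc25a32, the carrier that brings folate into mitochondria, rose as much as Phgdh. It read 7.73, 7.78, 7.71, 7.66 and 7.75 in LD and 8.37, 8.34, 8.41, 8.23 and 8.45 in HD, 1.55-fold higher (0.63 ± 0.044 SE, limma adjusted p = 1.4e-07). Tyms, which makes thymidylate with a folate-borne carbon, rose 1.44-fold (limma adjusted p = 3.2e-06). Slc19a1, the folate carrier of the cell surface, picked with its value known, rose 1.35-fold. Amt was the member that fell, with the limits given above. Folr1, Gldc and Dmgdh were below the floor, and the remaining genes of this list were not analysed here.

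Genes that supply or use serine and glycine went both ways, with 4 of 13 tested higher, 3 lower and a median of 0.04. These counts are near the shares over all genes (31.1% higher, 19.2% lower). The neutral amino acid transporter Slc1a5 rose 1.38-fold (limma adjusted p = 4.0e-06), and Got1, a transaminase that makes aspartate from glutamate, rose 1.17-fold, or by 0.12 on the log2 scale with control-row scaling. Sfxn3, a mitochondrial sideroflexin, fell from 10.6 ± 0.053 (SD, n = 5) to 10.11 (log2 difference -0.49, limma adjusted p = 4.0e-07). Its relative Sfxn1, a mitochondrial serine transporter picked with its value known, rose by 0.15 (limma adjusted p = 0.0023), a call lost with control-row scaling (0.03). Serine racemase, Srr, fell by 0.35 on the log2 scale. Pgam1, the glycolytic enzyme that draws on the same 3-phosphoglycerate as Phgdh and was picked with its value known, fell from 11.89 to 11.56. Every HD array of Pgam1 lay below every LD array, by at least 0.25 (limma adjusted p = 5.0e-06), and control-row scaling brought its difference to -0.61.

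Of 5 tested genes of purine synthesis, which takes up folate-borne carbon, 4 rose and none fell, with a median of 0.31, where 31.1% of all genes tested rose. Ppat, the first enzyme of that route, rose 1.58-fold (limma adjusted p = 6.1e-07). Gart, which uses formyl-tetrahydrofolate directly, rose 1.37-fold (limma adjusted p = 1.3e-06). In the methionine cycle 3 of 6 rose and none fell, with a median of 0.09 that is near the 0.06 of all genes, of which 31.1% rose. Ahcy, which clears S-adenosylhomocysteine, rose by 0.45 on the row used and by 0.37 on its other row, and the methionine synthase Mtr rose by 0.18, or 0.27 with control-row scaling.

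Phgdh, Psat1, Shmt2 and Mthfd2 are known targets of ATF4, the transcription factor of the amino acid response. Of 14 genes listed as Atf4 and its other targets, 6 rose, 4 fell and 4 did not pass (median 0.09, against 31.1% higher, 19.2% lower and a median of 0.06 over all genes). Atf4 itself, picked with its value known, rose 1.21-fold (0.28, limma adjusted p = 6.1e-05). Asns, the asparagine synthetase, rose by 0.58 (limma adjusted p = 6.4e-06), and Slc7a11, the cystine transporter, by 0.49 (limma adjusted p = 4.9e-06). Vldlr and Ddit3, which encodes the stress factor CHOP, fell by 0.57 and 0.53 (limma adjusted p = 3.3e-07 and 9.6e-06). The second row of Ddit3 differed by -0.41, and Vldlr fell by 0.37 with control-row scaling. Myc, whose protein also induces genes of this pathway, rose by 0.20, and its partner Max by 0.16. Both were lost with control-row scaling (0.01 and 0.07, adjusted p = 0.82 and 0.12).

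**Figure D5:**
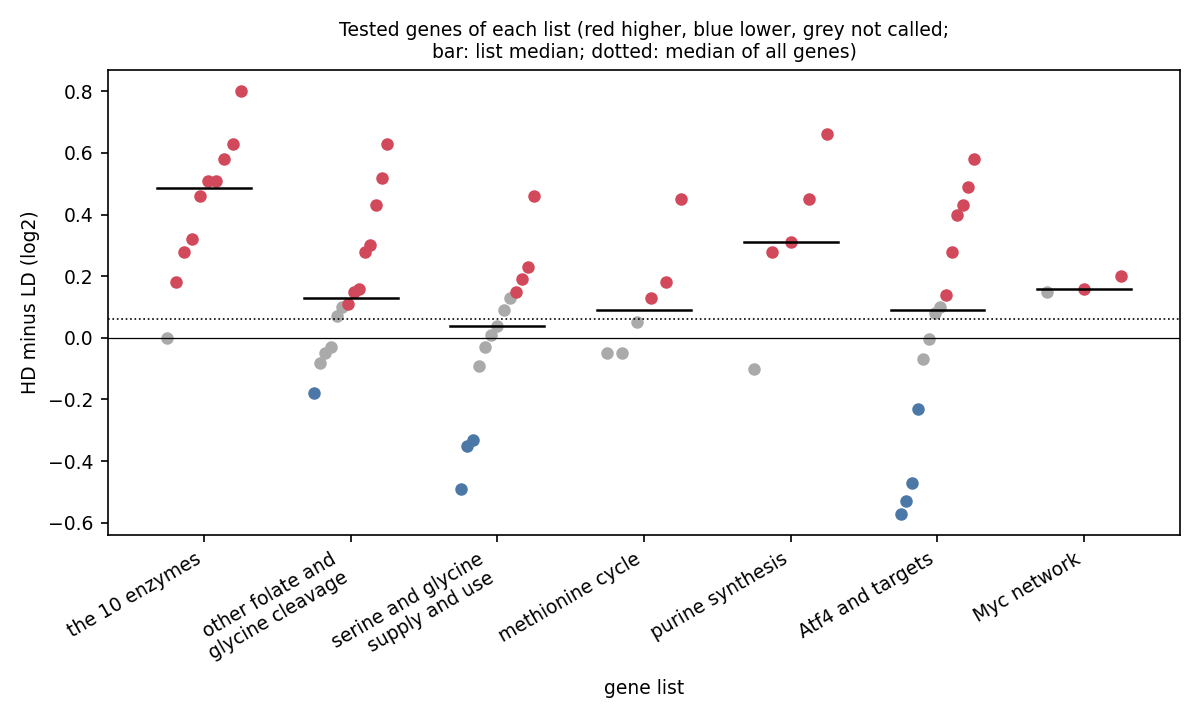
Log2 difference HD minus LD of every tested gene in each list, coloured by call (red higher, blue lower, grey not called), with the list median as a bar and the median of all genes dotted. The 10 enzymes and the purine genes lie mostly above the dotted line (medians 0.48 and 0.31), while the Atf4 targets lie on both sides of it (median 0.09).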

How the data were processed

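Expression of 4T1 cells was measured on 10 arrays, 5 LD and 5 HD. The deposited table holds log2 signals, produced by the authors. The submitters' processing notes name RMA, a method of background correction, quantile normalization and probe summary. The log2 scale was read from the values (1.49 to 14.34). No label, header or note used here names its version or genome build. No 2 arrays held identical values. Scanner files and batches were not used here.

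Row names came from the platform annotation: 30604 of 32750 annotated rows named 1 symbol, 22818 of them matched RefSeq gene IDs (GRCm38.p6), and 827 symbols were updated. A gene was its brightest row, tested if its mean over 10 arrays exceeded log2 5.16. HD was compared with LD with limma 3.58.1 (R 4.3.3), two-sided, Benjamini-Hochberg adjusted, after a check on simulated data. Enzyme pairs were tested with scipy 1.17.1.

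The enzymes and lists were chosen with earlier results of these data known. Named from each list were the 2 called genes that changed most in each direction, and for 3 enzymes the 3 genes most correlated with them. Replicate numbers 1 to 5 occur in both groups, but deviations of same-numbered arrays correlated at 0.189, -0.089, -0.036, 0.214 and -0.023, so they were not taken as pairs. The alternatives tried were a replicate block, quantile normalization, median centring, scaling on control rows, no filter, a filter at the 75th percentile (log2 6.88), averaged rows, trended robust variances, array weights and leaving out each array.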

Additional observations from a re-analysis of the deposited data

Results flagged for a closer look

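The signal of Shmt2 on HD replicate 2, 10.48, stood apart from the other 4 HD arrays (10.18 to 10.23) by more than Dixon's 95% critical value for 5 samples. This was 1 of 68 groups of 5 arrays looked at, where chance gives about 1 in 20. Without that array the log2 difference of Shmt2 was 0.27 instead of 0.32 (limma adjusted p = 6.0e-04).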

How the results depend on the processing

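The 9 calls among the enzymes kept their direction and their side of the threshold under every alternative in which the gene was tested (8 of 9 tested with the stricter filter, which drops Aldh1l2). The lowest and highest log2 differences were 0.48 and 0.66 for Phgdh, 0.76 and 0.85 for Mthfd2, and 0.15 and 0.44 for Aldh1l2. Mthfd1l was never called. Its difference was -0.02 after quantile normalization, -0.00073 after median centring, -0.07 with control-row scaling, -0.01 with array weights, and -0.02 to 0.02 when an array was left out. Genes called higher numbered 5626, or 9073 with control-row scaling, which moved the median of all genes from 0.06 to 0.14. Higher genes made up 61.8% of calls, 72.3% after quantile normalization and 72.8% with control-row scaling.

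In the wider lists, the count of lower folate and cleavage genes (1) was 0 after quantile normalization and with control-row scaling. It was 2 with array weights, and 0 to 1 when an array was left out. With the stricter filter it was 0 because Amt was too dim to be tested. Lower methionine cycle genes numbered 1 with control-row scaling. Lower purine genes numbered 1 with control-row scaling and with array weights, and 0 to 1 when an array was left out. Higher Myc network genes numbered 1 with control-row scaling. Lower Atf4 targets numbered 2 with the stricter filter, which leaves Vldlr and Stc2 untested. Amt turned to 0.02 with control-row scaling.

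For the enzyme pairs, leaving out an array gave -0.18 to -0.12 for Shmt2 minus Shmt1 and -0.0078 to 0.05 for Aldh1l2 minus Aldh1l1. Treating the replicate numbers as a block of pairs left the differences at -0.14 for Shmt2 minus Shmt1, 0.29 for Mthfd2 minus Mthfd1, -0.51 for Mthfd1l minus Mthfd1 and 0.69 for Mthfd2 minus Mthfd2l, none past the threshold, since 5 pairs cannot give an exact permutation p below 0.0625. In limma the block called 5712 genes higher and 3409 lower, and the same number of enzymes (9). Control-row scaling of the pairs was added after seeing the data and changed no call. Rows not above the median of the negative control rows, such as Aldh1l2 in LD, limit what their differences show.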
